A study of Mus musculus with 6 samples.

Results

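NF-YA occupancy was examined at nuclear genes for mitochondrial respiration, protein import and translation in mouse muscle stem cells (MuSCs). Members were chosen by gene symbol, with earlier results of these data known. All peaks annotated to a gene whose symbol begins with *Nduf*, *Sdha* to *Sdhd*, *Uqcr*, *Cox* followed by a digit, *Atp5*, *Timm*, *Tomm*, or *Mrpl* or *Mrps* followed by a digit were taken. This gave 58 peaks at 51 genes, out of 9056 peaks in the table. The symbols are the sole criterion, and no binding value is part of it. The series held 6 CUT&RUN samples of 1 cell type, cultured MuSCs from wild-type C57BL/6 mice in the activated, proliferating state, 3 with an antibody to NF-YA and 3 with mouse IgG. The 3 NF-YA libraries supplied all values below, and IgG values were not analysed here, so the levels stand without a measured IgG background. All libraries shared genotype, strain and cell state, so no comparison between conditions was possible. The labels give no source animal or culture for a replicate, so the spread between libraries may be technical. The cell type could not be checked, since its markers are expressed genes and the table holds binding.

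NF-Y is a trimer of NF-YA, NF-YB and NF-YC that binds the CCAAT box, a short element found upstream of many gene starts. NF-YA supplies the contact with the CCAAT letters. Mitochondria make ATP by passing electrons through complexes I to IV and by driving ATP synthase, complex V, with the resulting proton gradient. Only a few of these subunits are encoded in mitochondrial DNA. The others are encoded in the nucleus, many of them by genes described here. Further genes described here encode the TOM and TIM translocases that bring proteins through the outer and inner membranes. The rest encode proteins of the mitochondrial ribosome, which translates the mitochondrial messages. Quiescent MuSCs are known to hold few mitochondria and to gain them on activation. CUT&RUN uses an antibody to bring micrococcal nuclease to a bound factor, and the released DNA is sequenced. Values are normalised reads, which are the reads in a peak divided by a library size factor and rounded to whole numbers by the authors. They are not corrected for peak length.

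The strongest member was the *Tomm40* promoter, with 637, 765 and 785 normalised reads in replicates 1, 2 and 3. Its mean of 729 ± 80.3 (SD, n = 3) was the third highest of all 9056 peaks. Of the 58 peaks, 47 at 44 genes were promoter peaks, meaning that the peak centre lay within 1000 bp of the annotated transcription start site (TSS). The other extreme was formed by 13 peaks with a mean below 10, among them that of *Sdhb*, the sole complex II subunit gene with a peak. No *Uqcr* gene of complex III had an annotated peak. A CCAAT sequence lay within 50 bp of the centre in 33 of the 47 promoter peaks, 70.2% (95% Wilson interval 56.0% to 81.3%), beside 64.6% of all promoter peaks in the table.

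The sequences below show the CCAAT boxes under the strongest promoter peaks. They were read from GRCm38.p6, the assembly behind mm10, and run 5′ to 3′ on the strand of the gene. Capitals mark CCAAT, or ATTGG where the box is on the opposite strand. The first 3 are the members with 5 or more boxes, shown because several boxes follow each other within one promoter. Shown for *Tomm40* are 300 bases from 436 to 137 bp upstream of its TSS, which hold 7 of the 9 boxes of the peak. The *Atp5mc1* and *Atp5f1b* stretches each hold 5 boxes. In *Atp5mc1*, CCAATTGG is a box on each strand that overlap each other, and these were counted as separate boxes.
Tomm40 (chr7.0:19715575-19715874, minus strand): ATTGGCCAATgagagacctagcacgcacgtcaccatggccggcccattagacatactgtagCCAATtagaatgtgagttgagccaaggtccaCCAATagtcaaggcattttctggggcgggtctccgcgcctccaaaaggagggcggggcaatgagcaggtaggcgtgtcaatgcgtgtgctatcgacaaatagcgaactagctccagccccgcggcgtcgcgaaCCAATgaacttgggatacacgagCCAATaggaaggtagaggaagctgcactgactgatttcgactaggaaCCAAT
Atp5mc1 (chr11.0:96075686-96075870, minus strand): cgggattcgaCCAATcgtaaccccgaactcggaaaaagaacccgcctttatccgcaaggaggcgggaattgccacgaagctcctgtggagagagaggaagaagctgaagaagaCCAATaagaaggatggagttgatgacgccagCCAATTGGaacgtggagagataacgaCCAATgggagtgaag
Atp5f1b (chr10.0:128083075-128083246, plus strand): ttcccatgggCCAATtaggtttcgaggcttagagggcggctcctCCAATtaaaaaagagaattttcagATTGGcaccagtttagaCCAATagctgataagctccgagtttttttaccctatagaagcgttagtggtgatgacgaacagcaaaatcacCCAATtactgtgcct

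The next sequences give the box nearest to the peak centre in the strongest promoter peak of other functional groups, so that single boxes can be compared with the clusters above. The *Ndufs8* box lay 68 bp upstream of the TSS. In *Ndufaf2*, a box on each strand stood directly side by side, forming a palindrome, with the nearer box 82 bp upstream. *Cox8a*, *Cox14* and *Mrpl41* carried the box in the opposite orientation, as ATTGG. *Timm17a* had a box on each strand within the printed stretch. In *Mrps36* the box lay 453 bp downstream of the TSS, within an intron, but 75 bp upstream of the nearest start of another transcript of the gene. Only 29 bases are shown there. *Sdhb* had no CCAAT within its peak.
Ndufs8 (chr19.0:3912810-3912874, minus strand): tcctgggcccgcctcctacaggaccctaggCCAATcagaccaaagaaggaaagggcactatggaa
Ndufaf2 (chr13.0:108158673-108158737, minus strand): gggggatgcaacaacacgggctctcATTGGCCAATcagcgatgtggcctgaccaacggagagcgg
Cox8a (chr19.0:7217753-7217817, minus strand): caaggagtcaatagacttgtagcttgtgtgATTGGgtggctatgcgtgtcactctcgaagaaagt
Cox14 (chr15.0:99725486-99725550, plus strand): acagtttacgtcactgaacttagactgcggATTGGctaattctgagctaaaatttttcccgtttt
Timm17a (chr1.0:135313787-135313851, minus strand): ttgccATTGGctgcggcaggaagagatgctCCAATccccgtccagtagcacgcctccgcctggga
Mrpl41 (chr2.0:24975125-24975189, minus strand): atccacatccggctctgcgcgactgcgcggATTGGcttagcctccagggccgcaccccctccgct
Mrps36 (chr13.0:100744192-100744220, minus strand): ccagcagtccggCCAATcgctgtttaata

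To ask how much of this machinery carried NF-YA, all 210 nuclear protein-coding genes of GENCODE M21 with a matching symbol were counted. Of these, 51 had an annotated peak, 24.3% (19.0% to 30.5%). Over all 21938 nuclear protein-coding genes the share was 19%, at the lower edge of that interval. With promoter peaks alone it was 44 genes, 20.95% (15.99% to 27.0%), beside 14.8% of all genes. Requiring a mean of at least 10 normalised reads left 42 genes, 20.0% (15.2% to 25.9%), beside 15.3%. Groups were formed by gene symbol alone. By group, the share ran from 0 of 8 *Uqcr* genes of complex III to 4 of 10 genes with a *Tomm* symbol. The intervals of all groups overlapped each other, and no order of groups can be read from them.

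**Figure D1:**
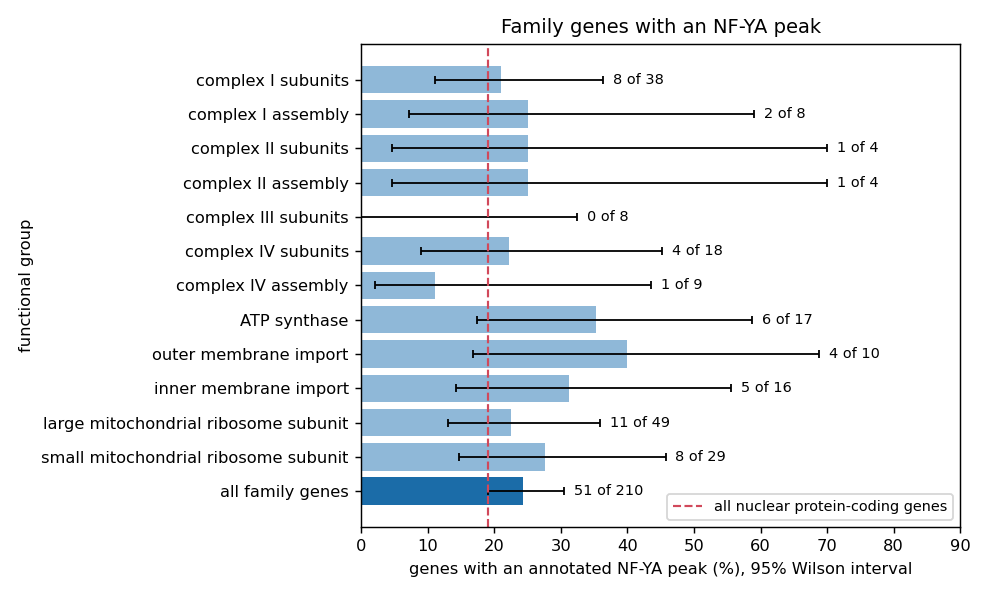
Share of family genes with an annotated NF-YA peak, in percent, for each functional group and for the whole family. Error bars are 95% Wilson intervals, the counts stand beside the bars, and the dashed line marks all nuclear protein-coding genes at 19%. The intervals of all groups include the line, and that of the whole family begins at it.

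Complex I is the NADH dehydrogenase that feeds electrons into the chain. Peaks were found at 8 of the 38 genes grouped by symbol as its subunits. Of 8 genes grouped as assembly factors, 2 had a peak. *Ndufs8*, a core subunit that carries iron-sulfur clusters, led with 177, 167 and 197 normalised reads and a mean of 180.3 ± 15.3 (SD, n = 3). *Ndufa6*, an accessory subunit, followed with 119, 77 and 90, and its 3 libraries did not overlap with those of *Ndufs8*. The accessory subunit genes *Ndufb11* and *Ndufa11* had means of 67 ± 11.0 and 60 ± 3.61. At the low end stood *Ndufv1*, which encodes the flavin-binding core subunit, with 17, 15 and 9, and *Ndufs6* with 9, 15 and 5. Among the assembly factors, *Ndufaf2* had 55, 62 and 70 at the palindromic box printed above. *Ndufaf3* had a pair of weak promoter peaks with means of 17 and 7.

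Complex II, succinate dehydrogenase, links the chain to the citric acid cycle. Only *Sdhb*, its iron-sulfur subunit, had a peak among 4 subunit genes, and its values were 5, 6 and 6. A floor of 3 reads stood at 4.43 normalised reads in replicate 2, just below the value there. *Sdhaf1*, an assembly factor for the iron-sulfur subunit, carried 3 peaks. The strongest of them lay 8210 bp upstream with 42, 27 and 21, and the promoter peak had 5, 4 and 11.

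Complex III is the cytochrome bc1 complex, and 0 of its 8 genes with a *Uqcr* symbol had an annotated peak. This leaves a share of up to 32.4% by the Wilson interval. Any gene of the complex with another symbol was not counted. These genes were *Uqcr10*, *Uqcr11*, *Uqcrb*, *Uqcrc1*, *Uqcrc2*, *Uqcrfs1*, *Uqcrh* and *Uqcrq*. The nearest peak in the table lay between 7017 bp from the TSS, for *Uqcr11*, and 1789704 bp, for *Uqcrb*. In the 250 bases upstream of the start, *Uqcr10* and *Uqcrh* each held 1 CCAAT and the other 6 genes none. Absence from the table means that no peak passed the authors' calling, not that NF-YA was absent.

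Complex IV, cytochrome c oxidase, had peaks at 4 of 18 subunit genes with a *Cox* symbol. Each lay within the promoter and had CCAAT near the centre. *Cox8a* had 52, 66 and 44, and *Cox7a1*, the isoform of heart and skeletal muscle, had 33, 46 and 53. Those libraries overlapped. *Cox6b2*, an isoform known from testis, gave 15, 3 and 6, the largest relative spread of all members at a coefficient of variation (CV) of 78.1%. *Cox14*, which acts in assembly of the complex, had 36, 71 and 48 and was the sole one of 9 *Cox* assembly genes with a peak.

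ATP synthase had 6 of 17 genes with a peak, and 2 of the 4 strongest members. The symbol *Atp5o* stands for 2 gene entries in GENCODE M21. Both lacked a peak, and both were counted here and in the family total of 210. *Atp5mc1* encodes subunit c of the rotor ring, and its promoter had 229, 250 and 222 normalised reads, a mean of 234 ± 14.6 (SD, n = 3). *Atp5f1b*, which encodes the catalytic beta subunit, had 163, 158 and 161, with a CV of 1.57%. The values of *Atp5mc1* lay above all those of *Atp5f1b*. *Atp5pd*, a subunit of the peripheral stalk, had 114, 98 and 117 at a promoter peak centred 89 bp inside the gene. *Atp5mc2*, a second gene for subunit c, had 76, 89 and 94 at a peak centred 1443 bp upstream of the annotated start. No other transcript of the same gene in GENCODE M21 started nearer to that centre. *Atp5f1e*, for the epsilon subunit, was the weakest promoter of the group, with 32, 28 and 29.

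Protein import had the strongest member and some of the weakest. *Tomm40* encodes the channel of the outer membrane translocase, and its peak alone made up 22.3% of the summed means of the 58 peaks. The peak spanned 810 bp (chr7:19715389-19716198) with the TSS inside it. *Tomm40l*, a paralogue of the channel gene, had 135, 146 and 126, below all values of *Tomm40*. *Tomm70*, a receptor for carrier proteins, had a pair of promoter peaks with means of 22.3 ± 5.69 and 17 ± 8.66. At the inner membrane, *Timm17a*, part of the TIM23 channel, had 70, 77 and 57. *Timm50*, the TIM23 receptor, had 21, 21 and 14. *Timm21*, another TIM23 component, was lowest with 9, 6 and 7.

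Genes of the mitochondrial ribosome had peaks at 11 of 49 large-subunit and 8 of 29 small-subunit genes. *Mrpl41* was strongest in the large subunit with 148, 93 and 103, a mean of 115 ± 29.3 (SD, n = 3). Below it, 5 further large-subunit genes, *Mrpl37*, *Mrpl38*, *Mrpl32*, *Mrpl50* and *Mrpl18*, had means between 49.7 and 79.3. *Mrpl28* was the weakest promoter of the group, with 15, 7 and 10. In the small subunit, *Mrps36* had 2 promoter peaks. The stronger one, within an intron, had 70, 52 and 67, and the one at the TSS had 11, 10 and 17. Despite its symbol, the *Mrps36* product is known as a part of the 2-oxoglutarate dehydrogenase complex. *Mrps10* was lowest with 5, 4 and 1, and the other promoter peaks of the small subunit had means between 7.33 and 50.3.

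**Figure D2:**
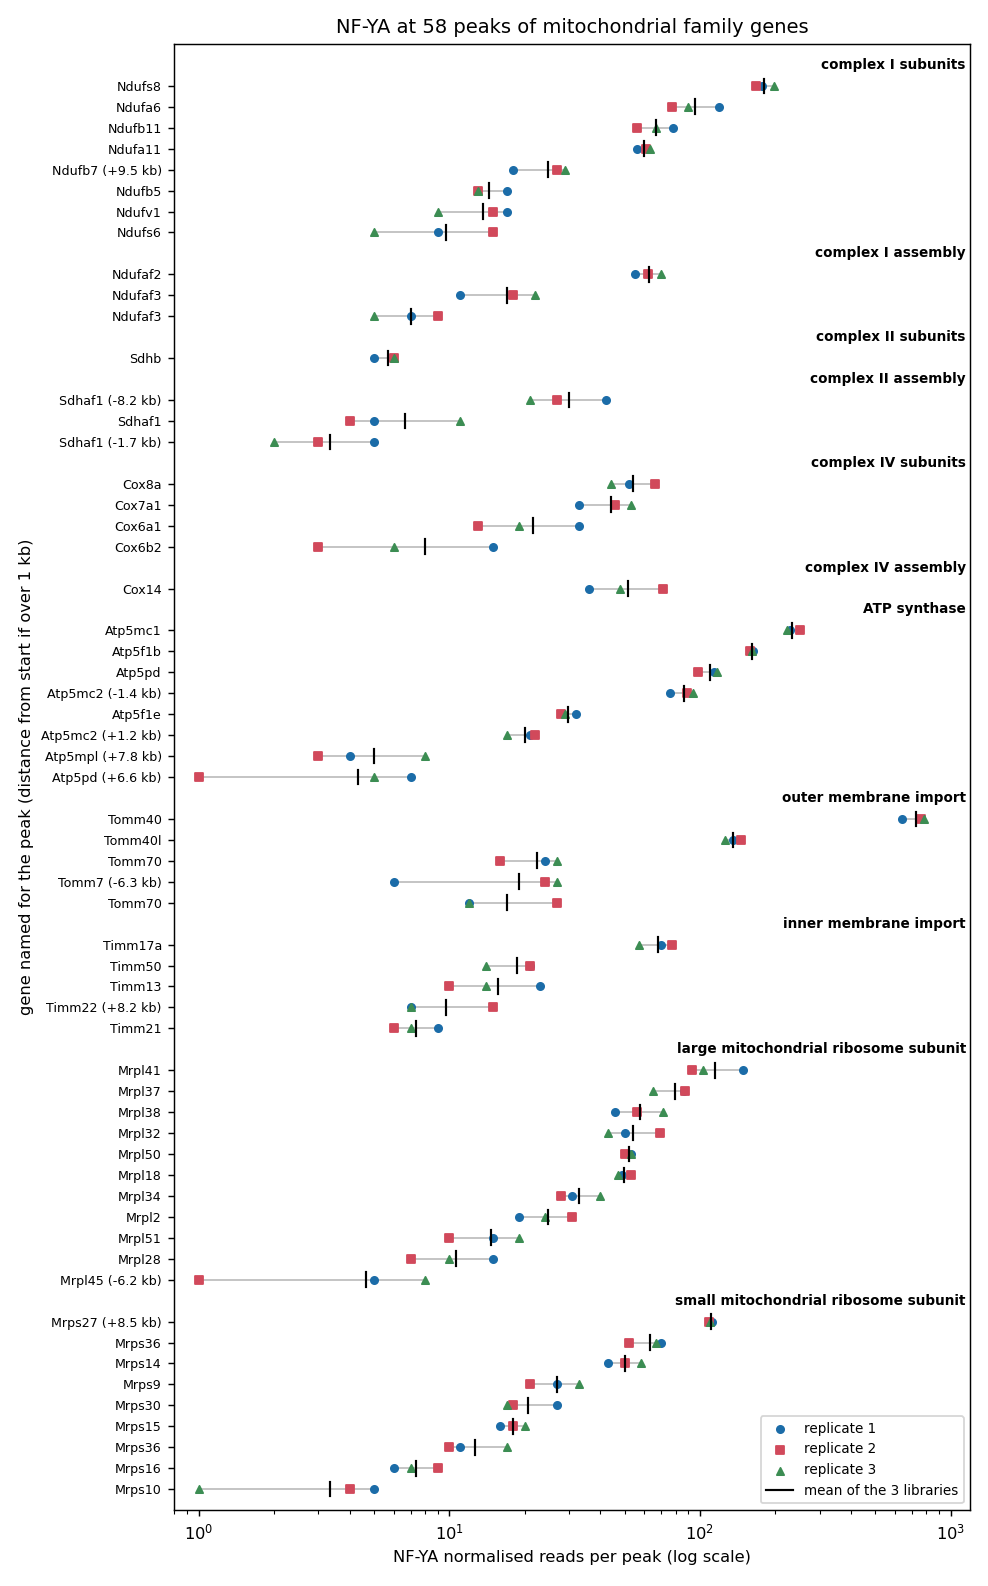
Normalised NF-YA reads of the 58 member peaks in each of the 3 libraries on a log scale, grouped by function and sorted by mean, with a black bar at the mean. *Tomm40* stands above all other members, and 13 peaks have a mean below 10.

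In the order of the means, the first 4 members were set apart from the next in line. *Tomm40*, *Atp5mc1*, *Ndufs8* and *Atp5f1b* each had all 3 values above those of the member that followed, down to *Tomm40l*. From *Tomm40l* to *Ndufb11*, the 8 pairs of neighbours overlapped in their values. Compared within each library, the higher of the pair led in all 3 libraries in 1 of these 8 pairs, *Mrpl37* over *Timm17a*. In all, 8 members had a mean above 100, 14 between 50 and 100, and 23 between 10 and 50. Peaks were measured in the same 3 libraries, and an exact permutation test that flips signs within 3 libraries cannot go below a two-sided p of 0.25, so no test was made of these differences. The libraries ranked the 58 members alike, with Spearman's rho of 0.93, 0.93 and 0.94 between pairs of libraries. The median CV of the members was 22.4%, beside 20.9% from counting alone. All 9 members with a CV above 50% had a mean below 20.

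To see whether the family was bound more strongly than other promoters, medians were compared within each library. The 47 member promoter peaks had medians of 32, 28 and 33 normalised reads in replicates 1, 2 and 3, and the 3699 other promoter peaks had 29, 28 and 30. The log2 ratio of the medians was 0.14, 0 and 0.14, a mean of 0.09 ± 0.08 (SD, n = 3). The difference of the medians was about the size of its spread between libraries, but it depended on the choice of peaks and scale. It was -0.0031 ± 0.08 when the other peaks were limited to protein-coding genes, 0.21 ± 0.09 per kb of peak, 0.22 ± 0.24 with the strongest promoter peak of each gene, and 0.45 ± 0.12 when promoters reached 5000 bp. Among member promoter peaks 22 of 47, 46.8%, were above the upper quartile of all peaks, beside 44.0% of the other promoter peaks.

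**Figure D3:**
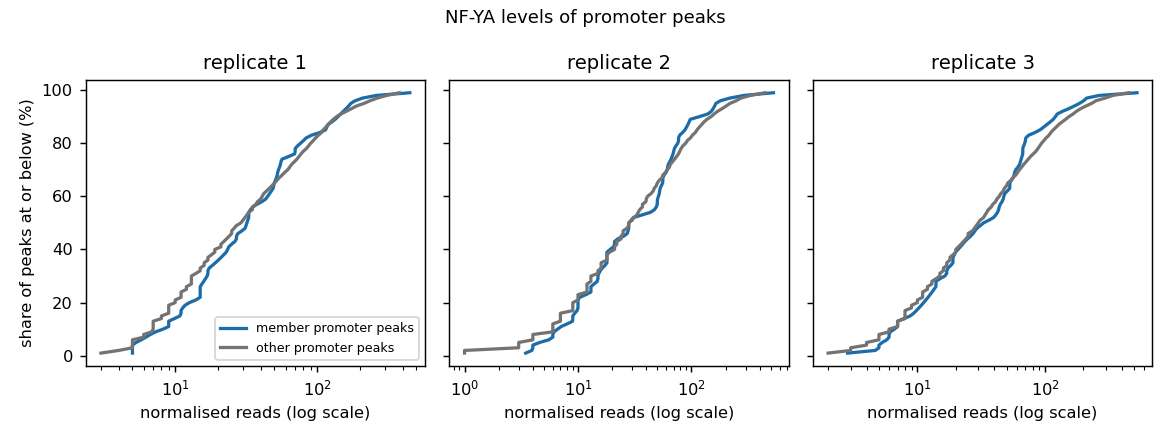
Cumulative share of promoter peaks, in percent, against normalised reads on a log scale for each of the 3 libraries. The curve of the 47 member promoter peaks runs close to that of the 3699 other promoter peaks in each library.

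Most members sat near a gene start. Of the 58 peaks, 47 had their centre within 1000 bp, 81.0% (69.1% to 89.1%), beside 60.5% of all gene-annotated peaks. The centre lay upstream of the gene in 40 promoter peaks, in a 5′ UTR in 4, in an intron in 2 and in a noncoding exon in 1, and 37 of the peaks spanned the TSS. Of the 11 distant peaks, 5 lay upstream and 6 downstream of the start. The strongest distant peak was in an intron of *Mrps27*, 8475 bp downstream of the start, with 112, 109 and 110 and the lowest CV of all members, 1.38%. Next were the *Atp5mc2* and *Sdhaf1* peaks given above, and the remaining 8 had means from 3.33 to 24.7. The distant peaks had a median CV of 45.8%, beside 21.7% for the promoter peaks, with median levels of 7, 22 and 17 in replicates 1, 2 and 3. *Tomm7*, for instance, had 6, 24 and 27. CCAAT lay within 50 bp of the centre in 4 of the 11 distant peaks, 36.4% (15.2% to 64.6%), beside 45.2% of other gene-annotated peaks at that distance. Genes with more than 1 peak were *Atp5mc2*, *Atp5pd*, *Mrps36*, *Ndufaf3*, *Sdhaf1* and *Tomm70*. The second *Atp5pd* peak, 6641 bp downstream of the start, had 7, 1 and 5.

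At the promoter peaks, CCAAT was concentrated at the centre. In windows of the same size 1000 bp to either side of the peak centre, 12.8% and 10.6% of member promoter peaks held the sequence, beside 11.8% and 12.7% of all promoter peaks. The box nearest to the centre lay at a median of 68 bp upstream of the TSS, with the middle part of the distribution from 111 to 26 bp upstream. In the other promoter peaks the median was 63 bp upstream. The box was upstream of the TSS in 29 of 33 member promoter peaks and downstream in 4, on the strand of the gene in 18 and on the opposite strand in 15. Of 2387 other promoter peaks with a box near the centre, it was upstream in 1874 and downstream in 499. In those peaks it was on the strand of the gene in 1186 and on the opposite strand in 1201. Since CCAAT has 5 letters and both strands were searched, a match describes the sequence and is not evidence of a contact.

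Level and number of boxes moved together. The 10 member promoter peaks with no CCAAT had a median of 14 normalised reads, the 16 with 1 box had 24.3, and the 21 with 2 or more had 63. Peak length rose alongside, with medians of 181.5, 228 and 311 bp, so the part of length in this pattern cannot be told apart. Across the 47 peaks, Spearman's rho was 0.66 between level and number of boxes and 0.90 between level and length. The other promoter peaks gave medians of 10, 20.2 and 78.5 for the same classes. *Tomm40*, with 9 boxes, and *Atp5mc1* and *Atp5f1b*, with 5 each, had the most boxes. Boxes that overlap on opposite strands, as in *Atp5mc1*, were counted separately. *Ndufs8* reached the third rank with 3 boxes. *Mrps14*, with 43, 50 and 58, was the strongest promoter without one. Between neighbouring boxes on the same strand of a promoter peak, 27 pairs in 14 genes had a median spacing of 50 bp.

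**Figure D4:**
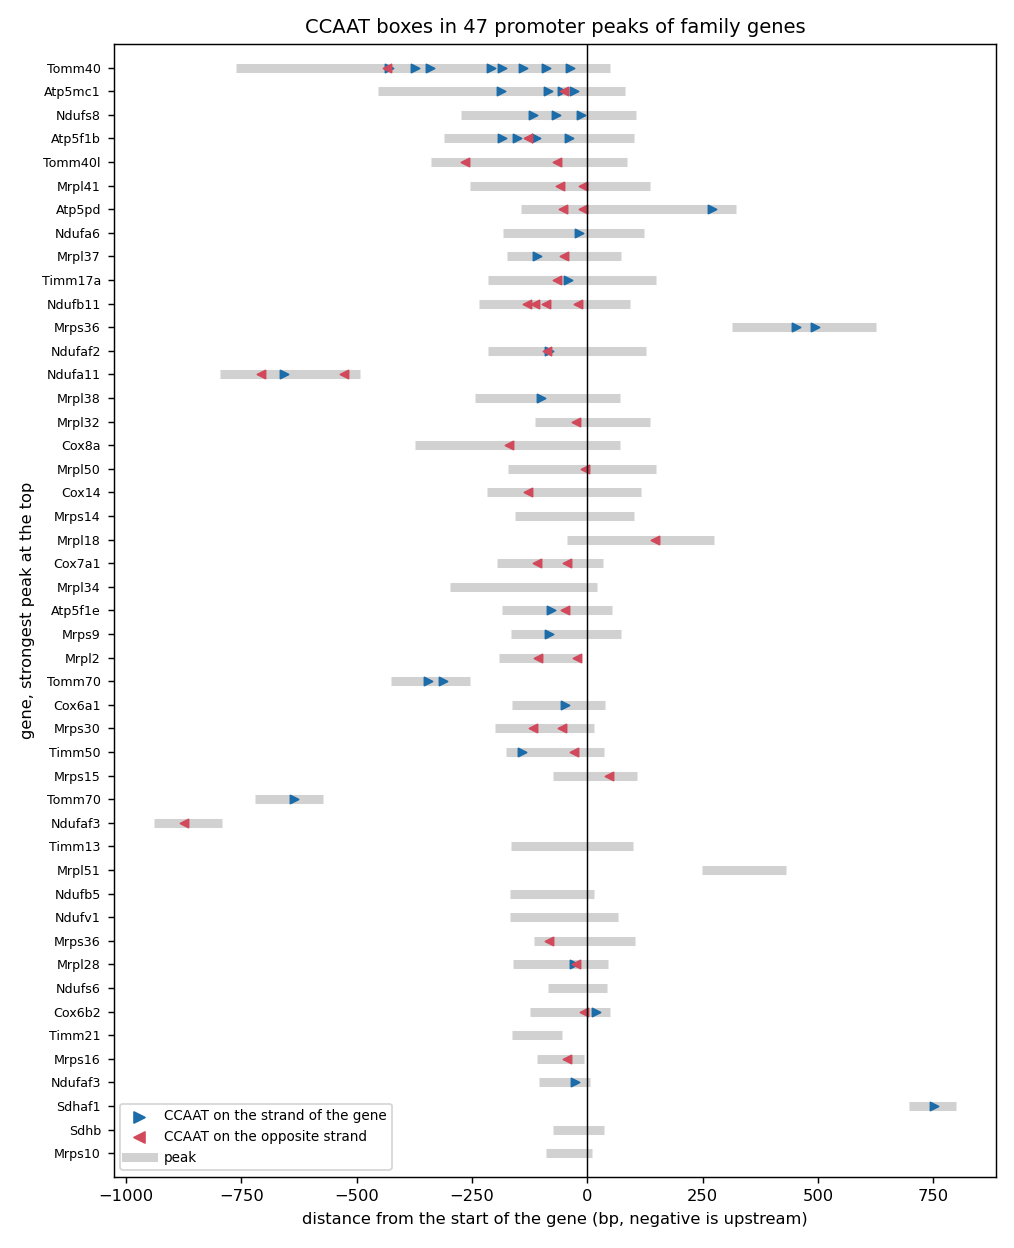
Position of each CCAAT box in the 47 member promoter peaks, in bp from the start of the gene, with peaks sorted by mean level. Blue arrowheads are boxes on the strand of the gene, red arrowheads are boxes on the opposite strand, and grey bars are the peaks. Boxes gather just upstream of the start, and *Tomm40* holds 9.

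The sequence upstream of the start also separated genes with and without a peak. CCAAT was present in the 250 bases before the TSS in 32 of 44 family genes with a promoter peak, 72.7% (58.2% to 83.7%), and in 38 of 159 family genes with no annotated peak, 23.9% (17.9% to 31.1%). Among all protein-coding genes the corresponding shares were 69.8% and 30.5%. Read the other way, 71 family genes had CCAAT in this window and 33 of them, 46.5%, had an annotated peak, beside 31.4% of all protein-coding genes with CCAAT. Of the 30 family genes with 2 or more, 63.3% had a peak, beside 51.0% genome-wide. Of the 139 without CCAAT, 12.9% had one, beside 12.0%.

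Several member promoter peaks lay near the start of a second gene on the opposite strand. Whether a peak lay between the paired starts was not checked. A second gene started on the opposite strand within 1000 bp of the peak centre at 20 of 47 member promoter peaks, 42.6% (29.5% to 56.7%), beside 28.1% of all promoter peaks. Counting protein-coding neighbours only, it was 15, 31.9% (20.4% to 46.2%), beside 14.8%. Among promoter peaks of protein-coding genes alone, the background shares were 29.1% and 15.4%. The strongest were *Tomm40* with *Gm20512*, *Atp5f1b* with *Gm47438*, *Mrpl41* with *Pnpla7*, *Atp5pd* with *Kctd2* and *Mrpl37* with *Cyb5rl*. In others the neighbour has a known role outside mitochondria. *Mrpl18* lay beside *Tcp1*, a subunit of the cytosolic chaperonin. *Mrpl32* lay beside *Psma2*, a proteasome subunit, and *Ndufaf2* beside *Ercc8*, a DNA repair gene. At such promoters, binding cannot be assigned to 1 of the paired genes.

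The annotation names 1 gene for each peak, and 13 family genes without an annotated peak had a peak within 1000 bp of one of their transcript starts that was named for another gene. The strongest was the peak named for *Sars2*, a mitochondrial seryl-tRNA synthetase gene, 162 bp from the start of *Mrps12*, with 208, 275 and 254. Next was the *Tepsin* peak 154 bp from the start of *Ndufaf8*, with 221, 219 and 197. Their means were 246 ± 34.3 and 212 ± 13.3 (SD, n = 3), at the level of the strongest ATP synthase promoter. The *Ppp1r10* peak near *Mrps18b* had 110, 136 and 144. In 2 cases the paired gene was itself a member, *Ndufb5* for *Mrpl47* and *Ndufs6* for *Mrpl36*. When any transcript start counted, 58 of 210 family genes had a peak, 27.6% (22.0% to 34.0%), beside 19.1% of all protein-coding genes.

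Motifs of other promoter factors were searched within 100 bp of the peak centre on both strands. These were the GC box GGGCGG, bound by Sp factors, the ETS motif CCGGAAG of the GABP type, and the NRF1 motif GCATGCGC. The others were ATGGCGG for YY1, TGACGTCA for the cyclic AMP response element (CRE), AAGGTCA for oestrogen-related receptors (ERR), the E-box CACGTG and the TATA box TATAAA. NRF1, GABP, YY1 and ERR are known regulators of respiratory chain genes. The ETS motif was found in 10 of 47 member promoter peaks, 21.3% (12.0% to 34.9%), beside 11.4% of all promoter peaks. NRF1 and YY1 motifs each occurred in 4, 8.51% (3.36% to 19.9%), beside 3.47% and 4.56%. The GC box occurred in 48.9% (35.3% to 62.8%), beside 58.9%. CRE was found in 0 of 47, up to 7.56% by the interval, beside 2.03%.

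Genes with the ETS motif were *Atp5pd*, *Mrpl38*, *Cox14*, *Mrpl34*, *Atp5f1e*, *Cox6a1*, *Mrpl51*, *Mrps36*, *Sdhb* and *Mrps10*. Of these 10 windows 6 also held CCAAT, beside 309 of the 428 windows with the ETS motif over all promoter peaks. All 4 windows with the NRF1 motif, at *Ndufa6*, *Mrpl32*, *Cox6a1* and *Sdhb*, held CCAAT as well. Over all promoter peaks, 85 of the 130 windows with the NRF1 motif did. CCAAT was in 77.5% of all promoter windows. At *Sdhb* that CCAAT lay in the window but outside the 112 bp peak. *Cox6a1* and *Sdhb* carried both the ETS and the NRF1 motif. The ERR motif was seen in 2 peaks, at *Atp5f1e* and *Sdhaf1*, the E-box at *Mrpl2* and *Ndufv1*, and the TATA box at *Sdhaf1* alone. For all motifs but ETS, the share of all promoter peaks lay within the interval of the members. For ETS it lay just below the interval.

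**Figure D5:**
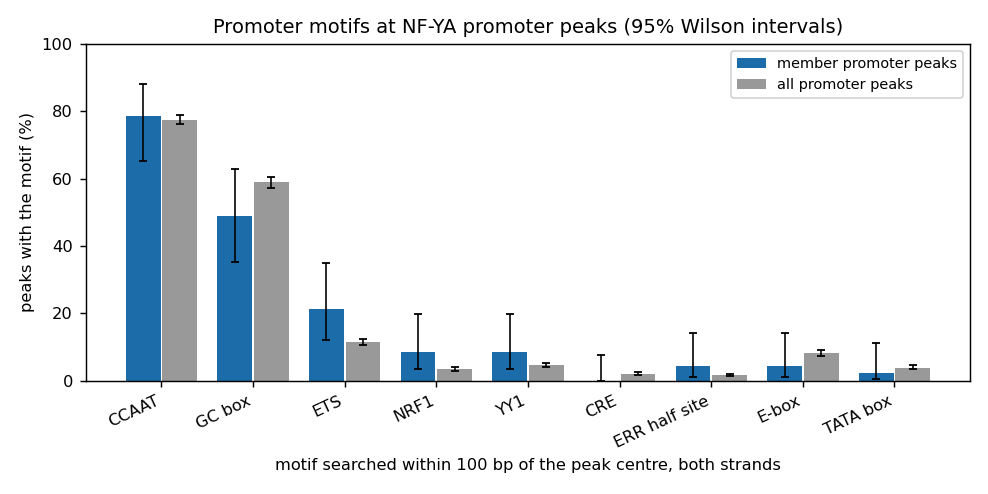
Percentage of promoter peaks with each motif within 100 bp of the peak centre, for the 47 member promoter peaks (blue) and all 3746 promoter peaks (grey). Error bars are 95% Wilson intervals. CCAAT is the most frequent motif in both sets, at 78.7% of members.

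Other mitochondrial genes were counted from lists drawn up with earlier results known, beside the 19% of all protein-coding genes with an annotated peak. Of 14 genes of the citric acid cycle, 9 had an annotated peak, 64.3% (38.8% to 83.7%), among them *Ogdh* with 70, 99 and 94, *Fh* with 92, 105 and 63, and *Cs* with 61, 55 and 63. Of 24 further assembly factors 6 had one, 25%, led by *Ecsit* with 125, 126 and 145 and *Lyrm7* with 100, 115 and 114. *Timmdc1*, on this list without a peak, also matched the symbol rule. It was therefore counted in the family too, by its symbol in the inner membrane import group. *Lyrm7* acts in the assembly of complex III. Among 15 genes for mitochondrial DNA maintenance and expression 2 had a peak, *Tfb1m*, an rRNA methyltransferase gene, with 112, 155 and 162, and *Polg*, the DNA polymerase. Import chaperones and proteases had 4 of 15, with *Grpel1* at 95, 106 and 85. Regulators of mitochondrial gene expression had 4 of 9, *Pprc1*, *Yy1*, *Esrra* and *Ppargc1b*, and translation factors 2 of 9.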

How the data were processed

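The authors trimmed reads with Trimmomatic 0.39, aligned them with STAR 2.7.9a to mm10, removed duplicates with Picard 2.25.5, called peaks with MACS2 per NF-YA library against its IgG, unified them, obtained read counts with featureCounts and scaled them with DESeq2 1.30.0. The deposited values have the unit score, reads per peak over a size factor, rounded to whole numbers by the authors. Other deposited columns give gene and TSS distance, within 10000 bp.

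What 1 read was worth was estimated from the rounded values as 0.67, 1.48 and 1.02 normalised reads in replicates 1, 2 and 3, so the reads in peaks were about 477155, 226924 and 334651. The floor of 3 reads was 2.01, 4.43 and 3.06. Of the members 0, 7 and 2 were at or below it. The median member held 40, 18 and 26 reads. Shares carry 95% Wilson intervals, which cover counting error only. Counting CVs assume Poisson reads. Gene models were GENCODE M21, with which 50 of 51 member genes agreed in position. Sequences came from GRCm38.p6. Peaks were chosen on these same libraries. Members and lists were chosen with earlier results of these data known. Named were the 10 strongest members, the strongest and weakest promoter peak of each group, genes with several peaks, the 3 strongest distant peaks and the 5 strongest shared promoters, and other genes after their values were seen. Functions were tested on simulated data for 9056 peaks. No test over genes or peaks was made. IgG was not compared, although planned. Unassigned per-sample columns numbered 0. Software was Python 3.11.15, pandas 2.3.3, scipy 1.17.1, numpy 2.4.6, pysam 0.24.0 and matplotlib 3.10.9.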

Additional observations from a re-analysis of the deposited data

How the results depend on the processing

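Of 34 alternative settings over 14 results, 29 were counted as unchanged. For the level and the shares, this meant staying within the spread of the libraries or the interval of the share. The median CV and the CCAAT position are given no such spread or interval. Scaling by the library sum could not move the level, which is a ratio taken within each library. The level of member promoters relative to other promoters, 0.09 on the log2 scale, moved to 0.21 with values per kb of peak and to 0.45 when promoters reached 5000 bp. With alternatives chosen after seeing the data, it was -0.0031 against protein-coding genes only and 0.22 with the strongest peak of each gene only. Leaving out each replicate gave 0.07 to 0.14, and a median CV of 17.8% to 18.3% against 22.4%. The TATA box share went from 2.13% to 0% over the whole peak. No paired analysis was possible because the columns that could be assigned all belonged to the NF-YA group. The planned comparison with IgG was therefore not run, and no IgG level could be set beside the members. Replicate 2 had the fewest estimated reads in peaks, which is not its sequencing depth, and 7 members were at or below 3 reads there.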
